A study of Mus musculus with 10 samples.

Results

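H3K4me3 and H3K27me3 were compared bin by bin in embryoid bodies (EBs) of the mouse embryonic stem (ES) cell line XT67E1, from 1 ChIP-Seq library of each mark. Interval midpoints of both libraries were counted in the same 2 kb bins of the mm9 build on the 19 autosomes, which gave 1236200 bins, and each library was divided by its autosomal mean. These 2 libraries are part of 10 in the series. A bin was called marked at 5 times the mean or more for H3K4me3 (9 reads) and at 3 times or more for H3K27me3 (20 reads). By that rule 41389 bins carried 1 mark or both, of which 14288 carried H3K4me3 alone, 25093 H3K27me3 alone and 2008 both.

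The cells had been grown for 10 days as EBs after the removal of LIF, the cytokine that keeps ES cells undifferentiated. XT67E1 has the strain label C3H/Pgk*129, its cell type label still reads ES-cells, and the antibodies were H3K4me3 Diagenode and H3K27me3 from T. Jenuwein. H3K27me3 libraries of EBs of the same age from the lines LF2 and E14, both labelled 129/Ola, were not used to define the classes and are set beside them. The 2 XT67E1 libraries held 2252395 (H3K4me3) and 8380007 (H3K27me3) reads, and those of LF2 and E14 held 4531733 each. With 1 library per line and mark there is no replicate, so no test was made, and all intervals are for counting error only.

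H3K4me3 is placed around the start sites of genes, mostly at active and CpG-rich promoters. H3K27me3 is placed by Polycomb repressive complex 2 on silent developmental genes, often in broad domains. In ES cells many developmental promoters carry both marks and are called bivalent, and they commonly keep only 1 of them as cells differentiate. EBs are mixtures of early cell types, and each mark was read in its own precipitation, so bins with both marks on the same nucleosome cannot be told apart from bins marked differently in different cells or on different alleles.

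The loci fell into several outcomes: H3K4me3 alone, H3K27me3 alone, and both marks present. Where both were present, H3K27me3 in the highest H3K4me3 bin was either under its threshold (Sox2) or over it (Eomes). As examples of sequence, the 250 bases before the start of 1 gene of each kind are printed from RefSeq's promoter table, with every CG in capitals. The kind is that of the gene's window, and the printed bases need not lie in the bins that set it. Gapdh encodes a glycolytic enzyme, Sox2 a pluripotency and neural factor, Eomes and T (brachyury) mesoderm T-box factors.
Gapdh: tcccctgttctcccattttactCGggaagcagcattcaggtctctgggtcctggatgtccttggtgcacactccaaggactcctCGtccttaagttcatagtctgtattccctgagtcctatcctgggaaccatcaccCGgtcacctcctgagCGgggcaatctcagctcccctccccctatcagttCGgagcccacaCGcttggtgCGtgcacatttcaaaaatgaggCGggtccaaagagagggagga
Sox2: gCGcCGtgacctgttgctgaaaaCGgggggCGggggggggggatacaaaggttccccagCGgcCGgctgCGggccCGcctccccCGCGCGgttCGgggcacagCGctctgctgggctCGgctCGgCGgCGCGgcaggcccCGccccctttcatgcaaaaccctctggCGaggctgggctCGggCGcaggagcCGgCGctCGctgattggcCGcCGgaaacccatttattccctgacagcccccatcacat
Eomes: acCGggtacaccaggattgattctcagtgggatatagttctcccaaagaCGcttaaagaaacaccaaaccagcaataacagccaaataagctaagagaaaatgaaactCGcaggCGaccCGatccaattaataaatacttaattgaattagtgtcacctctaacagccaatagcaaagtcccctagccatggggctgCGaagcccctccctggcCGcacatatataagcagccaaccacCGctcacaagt
T: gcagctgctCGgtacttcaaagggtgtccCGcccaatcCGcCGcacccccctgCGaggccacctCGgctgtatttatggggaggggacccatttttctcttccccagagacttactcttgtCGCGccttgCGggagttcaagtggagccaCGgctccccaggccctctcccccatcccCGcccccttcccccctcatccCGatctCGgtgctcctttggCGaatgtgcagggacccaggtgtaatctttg
These lie on GRCm38.p6 at chr6:125165774-125166023 on the minus strand (Gapdh), and on the plus strand at chr3:34649745-34649994 (Sox2), chr9:118477939-118478188 (Eomes) and chr17:8434173-8434422 (T). That build's positions must not be set against the mm9 positions of the bins. The stretches hold 8 CGs in Gapdh, 27 in Sox2, 8 in Eomes and 14 in T, where CG reads the same on both strands. Of the 32851 promoters of the table, 43.0% hold 8 CGs or more in this window, 8.56% hold 27 or more and 29.4% hold 14 or more, with a median of 6. Gapdh, which had H3K4me3 alone, and Eomes, which had both marks in 1 bin, thus had the same number of CGs. Of the 12 single genes described further on, 9 had an entry in the table, and Actb, Gata6 and Gata4 had none.

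Most bins with H3K4me3 had no H3K27me3 and most bins with H3K27me3 had no H3K4me3, yet the marks met more often than either did over the genome. H3K4me3 marked 16296 bins (1.32% of all autosomal bins) and H3K27me3 marked 27101 (2.19%). Of the bins with H3K4me3, 12.3% also had H3K27me3 (95% Wilson interval 11.8% to 12.8%), against the 2.19% over all bins. Seen from the other mark, 7.41% of the H3K27me3 bins (7.10% to 7.73%) also had H3K4me3, against 1.32% over all bins. Bins with both made up 0.162% of the autosomes, or 4.02 Mb, beside 32.6 Mb with H3K4me3 and 54.2 Mb with H3K27me3.

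At the other extreme, 8285 of the H3K4me3 bins (50.8%) had H3K27me3 under its mean, a share below the 59.4% over all bins. A further 6003 (36.8%) lay between the mean and the threshold. Among the H3K27me3 bins, 8202 (30.3%) had H3K4me3 under its mean, against 58.5% over all bins, and 16891 (62.3%) lay between. Bins with no read at all are part of these shares: 30.0% of all bins had no H3K4me3 read and 8.96% had no H3K27me3 read, and which of them can take reads was not tested.

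Bins with both marks were not the strongest bins for H3K4me3. Their median H3K4me3 was 7.45 times the mean (quartiles 5.73 and 10.3; 13 reads), against 12.6 times in bins with H3K4me3 alone. Their median H3K27me3 was 4.82 times the mean (quartiles 3.73 and 6.53; 31 reads), against 3.89 times in bins with H3K27me3 alone. Where a mark was absent by the rule, its median was near the mean, at 0.933 for H3K27me3 in bins with H3K4me3 alone and 1.15 for H3K4me3 in bins with H3K27me3 alone. The classes rest on low counts at their edges: 1375 bins had exactly 9 H3K4me3 reads and were in, and 2145 had 8 and were out. For H3K27me3, 3788 bins had 20 reads and 4848 had 19. The exact Poisson interval of 9 reads is 4.12 to 17.1 reads and that of 20 reads is 12.2 to 30.9, so a bin near an edge could fall on either side.

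**Figure D1:**
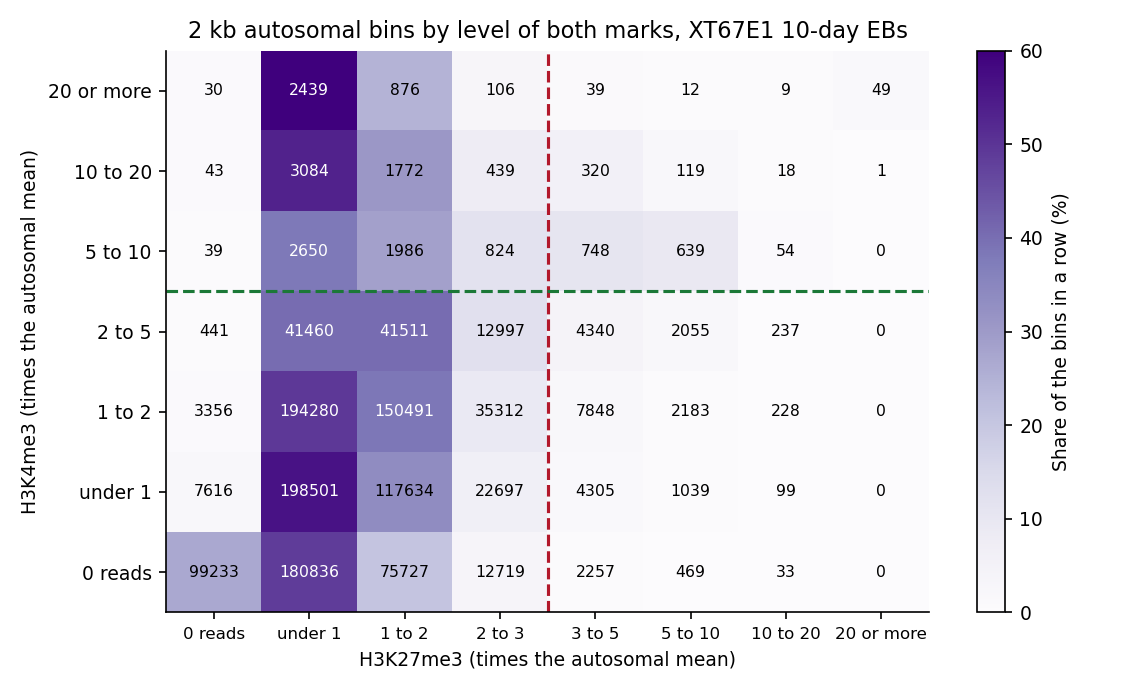
Number of 2 kb autosomal bins at each level of H3K4me3 (rows) and H3K27me3 (columns) in XT67E1 10-day EBs, both in multiples of the autosomal mean, shaded by the share of a row. Dashed lines are the thresholds, and most bins above the H3K4me3 threshold sit at the left, while 2008 lie beyond both lines.

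Coincidence was highest at moderate H3K4me3 and low at the strongest H3K4me3. H3K27me3 marked 2.61% of bins with H3K4me3 at 1 to 2 times the mean and 6.44% at 2 to 5 times. At 5 to 10 times it marked 1441 of 6940 bins, or 20.8% (19.8% to 21.7%). At 10 to 20 times it marked 458 of 5796, or 7.90% (7.24% to 8.62%). Among the 3560 bins at 20 times or more the share was 3.06%, and it was 1.71% (1.33% to 2.19%) without 49 bins that were very high in both libraries. The strongest H3K4me3 bins were thus marked by H3K27me3 about as often as all bins, and the moderate ones far more often.

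The same shape appeared in lines whose reads had no part in setting the levels. In LF2 EBs, H3K27me3 at 3 times its mean or more was found in 22.3% of the bins at 5 to 10 times, 9.77% at 10 to 20 times and 2.76% at 20 times or more, the last without the 49 bins. The E14 shares were 28.0%, 14.5% and 4.84%. All 3 lines peaked at 5 to 10 times, and the levels are those of XT67E1 H3K4me3 in each case.

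Read from the side of H3K27me3, coincidence rose and then stayed level. H3K4me3 marked 5.57% of bins with H3K27me3 at 3 to 5 times the mean, 11.8% at 5 to 10 times and 11.9% at 10 to 20 times. All 50 bins at 20 times or more were also H3K4me3-marked, and 49 of them are the bins high in both. Levels of the marks across bins come from 2 libraries that share the same cells and the same mappable bases.

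**Figure D2:**
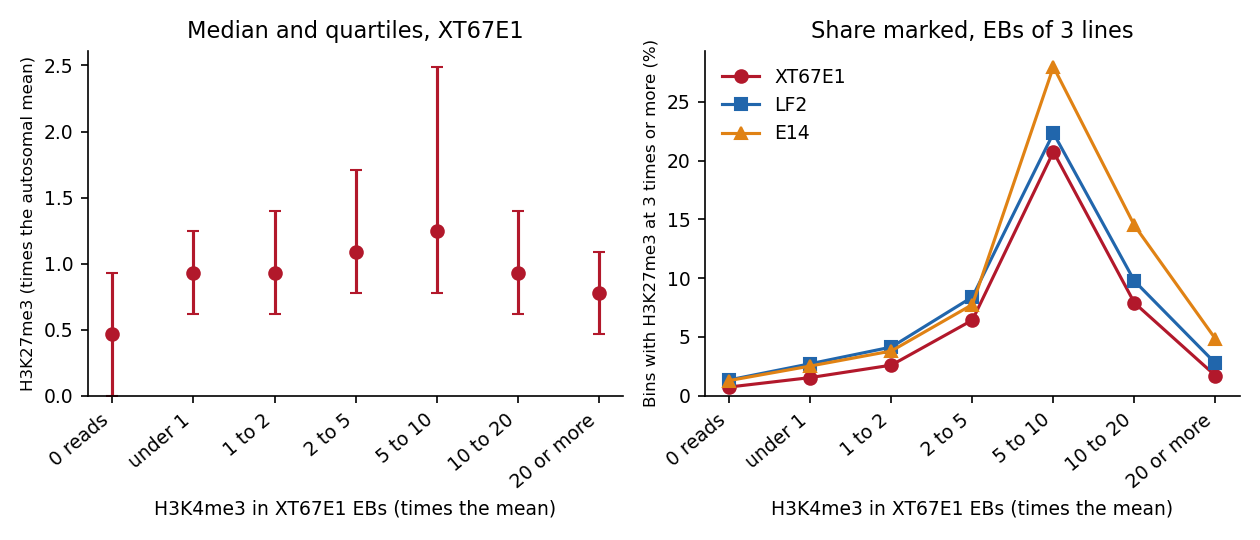
H3K27me3 in 2 kb bins grouped by H3K4me3 level in XT67E1 EBs, without the 49 bins high in both: at left the median with quartiles in XT67E1 in multiples of the mean, at right the share (%) of bins at 3 times the mean or more in EBs of 3 lines. The share is highest at 5 to 10 times in each line (20.8% in XT67E1, 22.3% in LF2, 28.0% in E14).

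Bins with both marks in XT67E1 mostly had H3K27me3 in LF2 and E14 as well, and bins with H3K27me3 alone did so less often. Over all bins, 3.38% reached 3 times the mean in LF2 and 3.21% in E14, 1.61% did so in both lines and 95.01% in neither. Of the 2008 bins with both marks, 81.8% did so in LF2 and 86.2% in E14, with medians of 5.16 and 7.27 times the mean. In 1531 of them (76.2%) both lines reached that level, and in 166 (8.27%) neither did. Bins with H3K27me3 alone reached it in 64.0% (LF2) and 58.7% (E14) of cases, in both lines in 48.4%, and in neither in 25.7% (6461 bins).

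Bins with H3K4me3 alone were low in the other lines, with medians of 0.861 in LF2 and 1.12 in E14. H3K27me3 reached 3 times the mean in 4.34% of them in LF2 and in 8.90% in E14. Of the 8285 bins with H3K4me3 and H3K27me3 under the mean, 11 (0.133%) reached it in both lines, against the 1.61% over all bins. No H3K4me3 library of LF2 or E14 EBs was used here, so whether their bins also carry H3K4me3 was not examined.

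Neighbouring marked bins with no gap were joined into runs, which gave narrow H3K4me3 and partly broad H3K27me3. There were 11716 H3K4me3 runs, of which 65.5% were a single bin and 19 (0.162%) were 10 kb or wider. There were 13907 H3K27me3 runs, of which 63.2% were a single bin and 953 (6.85%) were 10 kb or wider. The median width was 2 kb for both marks, the smallest width that 2 kb bins can show. The marks differed in the tail: H3K27me3 runs of 10 kb or more held 28.3% of all H3K27me3-marked length, against 0.847% for H3K4me3. The H3K27me3 library was deeper and had the lower threshold. With its reads thinned to the number of H3K4me3 reads, 2.52% of its runs were 10 kb or wider and its mean width fell from 3.90 to 2.84 kb, beside 2.78 kb for H3K4me3.

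H3K27me3 runs reached 20 kb in 218 cases and 40 kb in 22, and the widest was 136 kb. The widest H3K4me3 run was 82 kb, but it lay in the stretch at the start of chromosome 11 described below as high in both. Stretches with both marks in every bin formed 1758 runs, of which 89.4% were a single bin and 2 were 10 kb or wider.

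**Figure D3:**
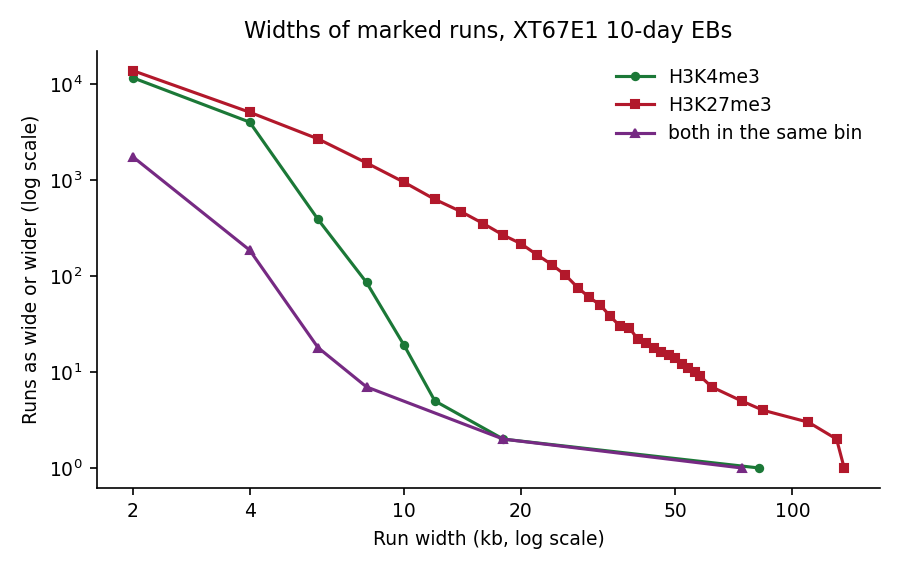
Number of runs (log scale) as wide as or wider than a given width (kb, log scale) in XT67E1 EBs, for H3K4me3, H3K27me3 and bins with both. H3K27me3 keeps 953 runs at 10 kb or more, against 19 for H3K4me3 and 2 for both, and the last points of the lines for H3K4me3 and both come from the start of chromosome 11.

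Wider H3K27me3 runs more often held an H3K4me3 bin, while the share per bin was highest at 4 to 8 kb. The share of runs with at least 1 such bin was 5.18% at 2 kb, 22.0% at 4 to 8 kb, 36.3% at 10 to 18 kb, 36.7% at 20 to 38 kb and 10 of 22 (45.5%) at 40 kb or more. Per bin, the shares were 5.18%, 9.77%, 7.44%, 4.94% and 7.81% in the same order. The last value rests on the run at the start of chromosome 11 that is described below as high in both. Without it, H3K4me3 marked 17 of 654 bins (2.60%; 1.63% to 4.12%) in runs of 40 kb or more, and 9 of 21 such runs (42.9%) held one. The mean H3K27me3 level, part of the rule here, went from 3.61 times the mean at 2 kb to 8.16 at 40 kb or more (7.07 without that run). In the other lines the mean over the same bins went from 2.88 to 8.51 (LF2; 7.65 without the run) and from 2.79 to 12.2 (E14; 11.9 without).

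Seen from H3K4me3, most runs stood apart from H3K27me3. Of the 11716 runs, 1755 (14.98%) overlapped an H3K27me3 bin, 1542 (13.2%) had one within 10 kb but not inside, and 8419 (71.9%) had none within 10 kb. The overlapping runs had the lowest H3K4me3, with a median peak of 8.02 times the mean, against 12.6 in flanked runs and 15.5 in runs standing apart. They were also more often a single bin, at 74.1% against 61.9% of the runs apart, with 75.3% of the flanked runs a single bin. In 1467 of the overlapping runs (83.6%) every bin also had H3K27me3. This holds by definition for the single bins among them, so only the 455 overlapping runs of 4 kb or more could show otherwise. In 795 of all overlapping runs (45.3%) an H3K27me3 bin lay within 10 kb on each side, with or without a gap to the run. By the same measure, 184 of the flanked runs had H3K27me3 on both sides.

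Around overlapping runs H3K27me3 was a local peak rather than a plateau. After leaving out runs with a bin high in both (12, all overlapping), mean H3K27me3 was 5.05 times the mean at the 1743 remaining runs, 3.94 at 2 kb, 2.64 at 4 kb and 1.61 at 20 kb. In LF2, which the choice of runs did not use, the values were 5.56, 4.08, 2.71 and 1.63, and in E14 they were 8.84, 5.43, 3.26 and 1.64. In XT67E1 the choice of runs fixes the high value on the run, and only LF2 and E14 show it apart from that choice.

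Flanked runs had a dip in XT67E1, at 1.47 on the run and 1.99 at 2 kb, which their definition fixes. In LF2 the means were 1.67 and 1.91, and the medians 1.43 and 1.72. In E14 the means were 2.17 and 2.14, with no dip, but the medians were 1.40 and 1.68. Runs standing apart were near the mean throughout in XT67E1 (0.962 on the run, 1.01 at 2 kb) and LF2 (0.98 and 0.97). In E14 the run itself stood at 1.28, against 1.03 at 2 kb.

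**Figure D4:**
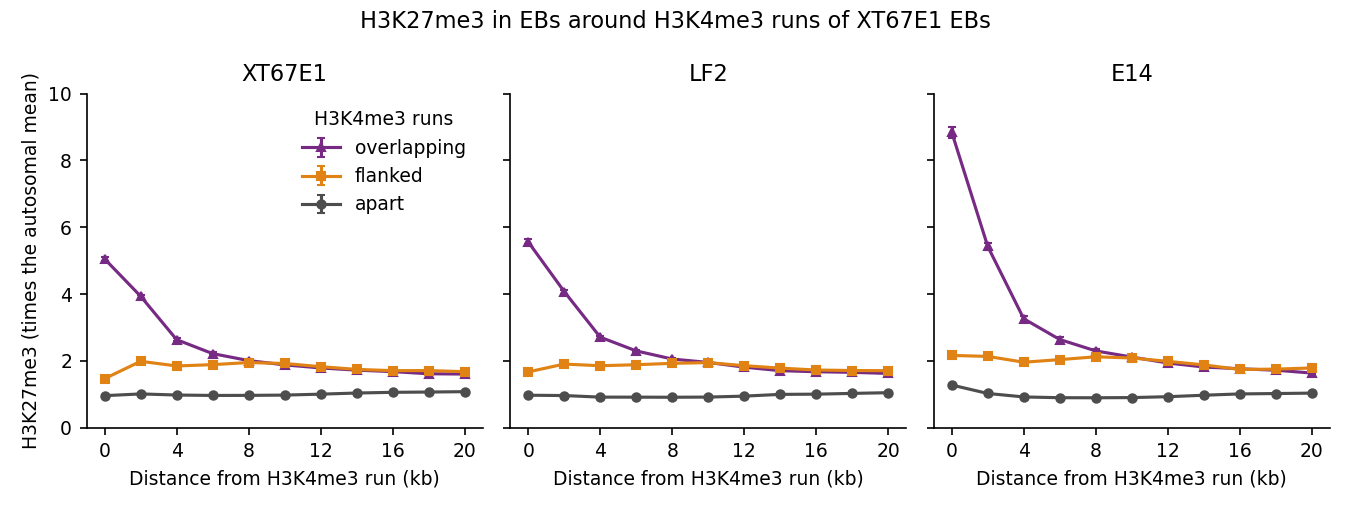
Mean H3K27me3 (times the autosomal mean, with the standard error over runs, which are not replicates) by distance (kb) from the edge of XT67E1 H3K4me3 runs, 0 being the run, in EBs of XT67E1, LF2 and E14. Overlapping runs (1743) peak on the run in each line, the mean of flanked runs (1542) dips on the run in XT67E1 and LF2, and runs apart (8419) stay near 1 except on the run in E14 (1.28). The kinds of run were defined by XT67E1 H3K27me3, which shapes the XT67E1 values.

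Inside broad H3K27me3 runs of XT67E1, mean H3K27me3 was nearly the same in H3K4me3 bins as beside them. In H3K27me3 runs of 10 kb or more, 434 H3K4me3 bins had an H3K27me3 bin without H3K4me3 next to them in the run. By definition every bin of such a run is at or above the H3K27me3 threshold in XT67E1. An H3K4me3 bin with H3K27me3 under that threshold breaks the run and is left out. A dip to below the threshold could therefore not show in XT67E1, and LF2 and E14 were read only in the bins so chosen. Mean H3K27me3 was 6.88 times the mean in the H3K4me3 bins and 6.86 in their neighbours, with 207 of the 434 (47.7%) lower than their neighbours. LF2 had 7.94 against 6.93 and E14 had 13.4 against 10.3 in the same bins. The 80 of these bins with H3K4me3 at 10 to 20 times stood at 5.69, against 6.31 next to them, in XT67E1, while LF2 (6.07 against 5.79) and E14 (9.57 against 7.71) were higher in the bin.

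The 49 bins at 20 times the mean or more in both libraries were high in nearly every library of the series. They lay on 7 chromosomes, 29 of them on chromosome 11 and 10 on chromosome 9, and 38 started below position 3200000. In 47 of the 49, all 10 libraries of the series stood at 10 times their mean or more, whatever the mark, line or state, against 8 of the other 1959 bins with both marks. Ranked by the mark that exceeded its threshold least, the highest were on chromosome 2 at 98502001 to 98504000 (250 H3K4me3 and 511 H3K27me3 reads) and on chromosome 17 at 39980001 to 39982000 (229 and 1288 reads). The widest run with both marks, 74 kb on chromosome 11 from 3026001 to 3100000, and the next, on chromosome 9 from 3022001 to 3040000, belong to them. No input library was used here, so the level of these bins without an antibody was not tested. Leaving out every bin within 100 kb of them, a choice made after seeing the data, removed 71 of the 2008 bins and gave a share of 11.95% in place of 12.3%.

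Chromosome 8 stood apart in both libraries. Its mean was 1.43 times the autosomal mean for H3K4me3 and 1.47 for H3K27me3, the highest of the 19 in each. There, 21.0% of the H3K4me3 bins (18.8% to 23.4%) also had H3K27me3, against 7.54% on chromosome 17, the lowest, a median of 11.8% and 14.98% on chromosome 18, the next highest. H3K27me3 marked 6.69% of all bins of chromosome 8, and the median H3K27me3 of its H3K4me3 bins was 1.55 times the mean, against 0.933 over the autosomes. Scaling each chromosome to its own mean gave 11.9% over all autosomes in place of 12.3%. What part the level of chromosome 8 has in its share was not tested.

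No annotation of mm9 was used here, so the bins below are given by mm9 position without gene names. Away from the 49 bins, the highest bins with both marks were on chromosome 6 at 103598001 to 103600000 (37 H3K4me3 reads, 71 H3K27me3 reads), chromosome 8 at 28196001 to 28198000 (46 and 70), chromosome 18 at 40466001 to 40468000 (34 and 69), chromosome 8 at 59800001 to 59802000 (31 and 65) and chromosome 5 at 147072001 to 147074000 (28 and 101). H3K27me3 in all 5 was also high in the other lines, from 5.74 (chromosome 18) to 19.2 (chromosome 5) times the mean in LF2 and from 7.83 to 30.8 in E14, for the same bins. The widest such runs were 8 kb each, on chromosome 3 from 128916001 to 128924000, chromosome 8 from 19980001 to 19988000 and chromosome 14 from 122872001 to 122880000. The last held 82 H3K4me3 and 161 H3K27me3 reads. These lists were drawn up after the 49 bins had been seen to fill the first ones.

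Among bins with H3K4me3 and H3K27me3 under its mean, the highest held over 60 times the mean of H3K4me3. They were on chromosome 8 at 108734001 to 108736000 (67.6 times the mean in H3K4me3, with 6 H3K27me3 reads), at 72566001 to 72568000 (113 H3K4me3 and 5 H3K27me3 reads) and at 81032001 to 81034000 (108 and 5). The others were on chromosome 6 at 51418001 to 51420000 (111 and 3) and chromosome 10 at 127472001 to 127474000 (108 and 2). In LF2 and E14 each of the 5 held 2 to 4 H3K27me3 reads. The widest run of this class was 10 kb, on chromosome 5 from 123584001 to 123594000, with 121 and 19 reads. Of the 5 bins, 3 lay on chromosome 8, whose mean was raised in both libraries.

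The highest bins with H3K27me3 and H3K4me3 under its mean held 89 to 113 H3K27me3 reads and 1 H3K4me3 read each. They were on chromosome 9 at 74710001 to 74712000 (113 H3K27me3 reads), chromosome 2 at 38204001 to 38206000 (97), chromosome 8 at 72896001 to 72898000 (94), chromosome 11 at 118906001 to 118908000 (93) and chromosome 14 at 67854001 to 67856000 (89). LF2 stood at 13.8 to 21.2 times its mean in these bins and E14 at 14.5 to 24.1, so all 5 were high in the 3 lines. The widest runs of H3K27me3 without any H3K4me3 bin were 62 kb on chromosome 9 from 91244001 to 91306000, and 58 kb each on chromosome 4 from 115600001 to 115658000 and chromosome 7 from 150598001 to 150656000. A run on chromosome 7 from 150484001 to 150538000 was the weakest of the 5 widest, at 4.96 times the mean in XT67E1, 5.17 in LF2 and 2.76 in E14.

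A set of 16 loci was placed by name from general knowledge of mm9, with no annotation file behind them, so each name stands for the window given. The 4 Hox clusters hold the genes that set position along the body axis. The widest H3K27me3 runs of the autosomes lay at 3 of them: 136 kb on chromosome 15 from 102736001 to 102872000 (HoxC), 130 kb on chromosome 6 from 52098001 to 52228000 (HoxA) and 110 kb on chromosome 11 from 96110001 to 96220000 (HoxB). At HoxD the run measured 62 kb, on chromosome 2 from 74492001 to 74554000.

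H3K27me3 covered every or nearly every bin of the HoxA, HoxC and HoxD windows and most bins of HoxB. H3K4me3 marked only 1 or 2 bins in each window, but it marked few bins anywhere (1.32% of all autosomal bins). Over the whole windows H3K4me3 stood at 1.51 (HoxC) to 1.73 (HoxD) times the mean, so it was not depleted there. HoxA had 60 of 60 bins with H3K27me3 and 2 with H3K4me3, HoxC 60 of 60 and 2, HoxB 79 of 95 and 2, and HoxD 52 of 55 and 1. All 7 H3K4me3 bins also had H3K27me3, as did nearly all bins of these windows. The 7 bins held 9 to 14 H3K4me3 reads, and the threshold was 9. The median H3K27me3 bin held 57.5 reads at HoxA (lowest 26, highest 82), 46.0 at HoxB (5 to 77) and 52.0 at HoxD (14 to 78), and the bins of HoxC held 29 to 73. H3K4me3 ranged from 0 to 14 reads per bin over the 4 clusters, with a median of 2 in each. Over the whole windows H3K27me3 was lowest at HoxB and highest at HoxA in each line, at 6.67 and 8.67 times the mean in XT67E1, 7.47 and 10.1 in LF2, 13.3 and 18.7 in E14.

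Actb (cytoskeletal actin) and Gapdh, genes active in nearly all cells, had H3K4me3 alone. The highest H3K4me3 bin near Gapdh, on chromosome 6 at 125114001 to 125116000, held 110 H3K4me3 reads and 9 H3K27me3 reads. That of Actb, on chromosome 5 at 143668001 to 143670000, held 49 and 5. No bin of either window, about 10 kb to each side, had H3K27me3 at the threshold. LF2 and E14 held 2 to 7 H3K27me3 reads in these bins.

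The pluripotency genes had strong H3K4me3 in EBs, with H3K27me3 in the window of Sox2 only. Pou5f1, which encodes Oct4, had 48 H3K4me3 and 16 H3K27me3 reads in its highest bin, on chromosome 17 at 35642001 to 35644000. Nanog had 55 and 10 in its own, on chromosome 6 at 122658001 to 122660000. Neither window had an H3K27me3 bin, but the E14 library held 41 H3K27me3 reads at the Pou5f1 bin, 11.5 times its mean (8.23 to 15.6), against 2.49 times (1.42 to 4.04) in XT67E1 and 3.73 times (1.99 to 6.38) in LF2. These 3 values are from different lines, and what sets them apart was not tested.

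At Sox2 the marks overlapped in part. Its window, on chromosome 3 from 34538001 to 34560000, had 5 of 11 bins with H3K4me3, 6 with H3K27me3 and 2 with both. The highest H3K4me3 bin, at 34550001 to 34552000, held 65 H3K4me3 reads and 19 H3K27me3 reads, 1 short of the threshold, and a 12 kb H3K27me3 run began at the next bin. In E14 the same bin held 44 H3K27me3 reads, or 12.3 times the mean, and in LF2 14, or 4.02 times. The printed stretch before the Sox2 start has the most CGs of the 4.

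The endoderm regulators Gata6, Foxa2 and Gata4 each had bins with both marks, and more bins with H3K27me3 alone. Gata6 had 3 of 11 bins with H3K4me3, all within 7 with H3K27me3, and its highest H3K4me3 bin, on chromosome 18 at 11052001 to 11054000, held 23 H3K4me3 and 39 H3K27me3 reads. The other lines had less H3K27me3 in that bin, at 4.30 times the mean in LF2 (2.41 to 7.10) and 3.64 in E14 (1.94 to 6.22), against 6.06 in XT67E1 (4.31 to 8.29), with intervals that overlap. The other bins with both marks differed. At 11054001 to 11056000 LF2 (8.03) and E14 (19.9) were above XT67E1 (7.46). At 11050001 to 11052000 E14 (11.2) was above XT67E1 (7.31) and LF2 (4.88) below it. Foxa2 had 13 and 58 reads in its highest H3K4me3 bin, with 2 bins of 10 carrying both, and Gata4 had 10 and 33, with 2 of 10. Their H3K27me3 runs measured 24 kb (Foxa2), 20 kb (Gata4) and 14 kb (Gata6).

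Among the mesoderm and neural genes placed, T and Pax6 had H3K27me3 alone, and Eomes had both marks in 1 bin. Eomes had 1 bin with both marks of 11, on chromosome 9 at 118388001 to 118390000, with 21 H3K4me3 and 25 H3K27me3 reads, and 7 bins with H3K27me3. The bin before it, in which the Eomes start was placed, held 7 H3K4me3 and 41 H3K27me3 reads. At T, whose highest H3K4me3 bin (chromosome 17, 8626001 to 8628000) held 8 reads, 1 below the threshold, and 54 H3K27me3 reads, 8 of 11 bins had H3K27me3 alone. Pax6, a regulator of eye and brain development, had H3K27me3 in 11 of 11 bins of its window, with at most 5 H3K4me3 reads, inside a 38 kb run. Counting error does not separate the 8 reads at T from the 10 at Gata4, so the class of such loci turns on a few reads.

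Cdkn2a, which encodes cell-cycle inhibitors, had 1 H3K4me3 bin (9 reads, with 16 H3K27me3 reads) next to 4 H3K27me3 bins, and none with both. Its window held H3K27me3 at 2.77 times the mean in XT67E1 (Poisson interval 2.38 to 3.20). The LF2 value there was 4.10 (3.46 to 4.83) and the E14 value 10.8 (9.74 to 11.9), so none of the 3 intervals overlap. E14 was likewise the highest of the 3 lines over each of the Hox, Pax6, Foxa2, Gata4, Gata6, T, Eomes, Sox2, Pou5f1 and Nanog windows. It was the lowest at Actb (0.811, against 1.10 in XT67E1 and 1.00 in LF2) and at Gapdh (0.458, against 0.735 and 0.887). A stronger enrichment over background in 1 library and more H3K27me3 in its cells cannot be told apart here.

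**Figure D5:**
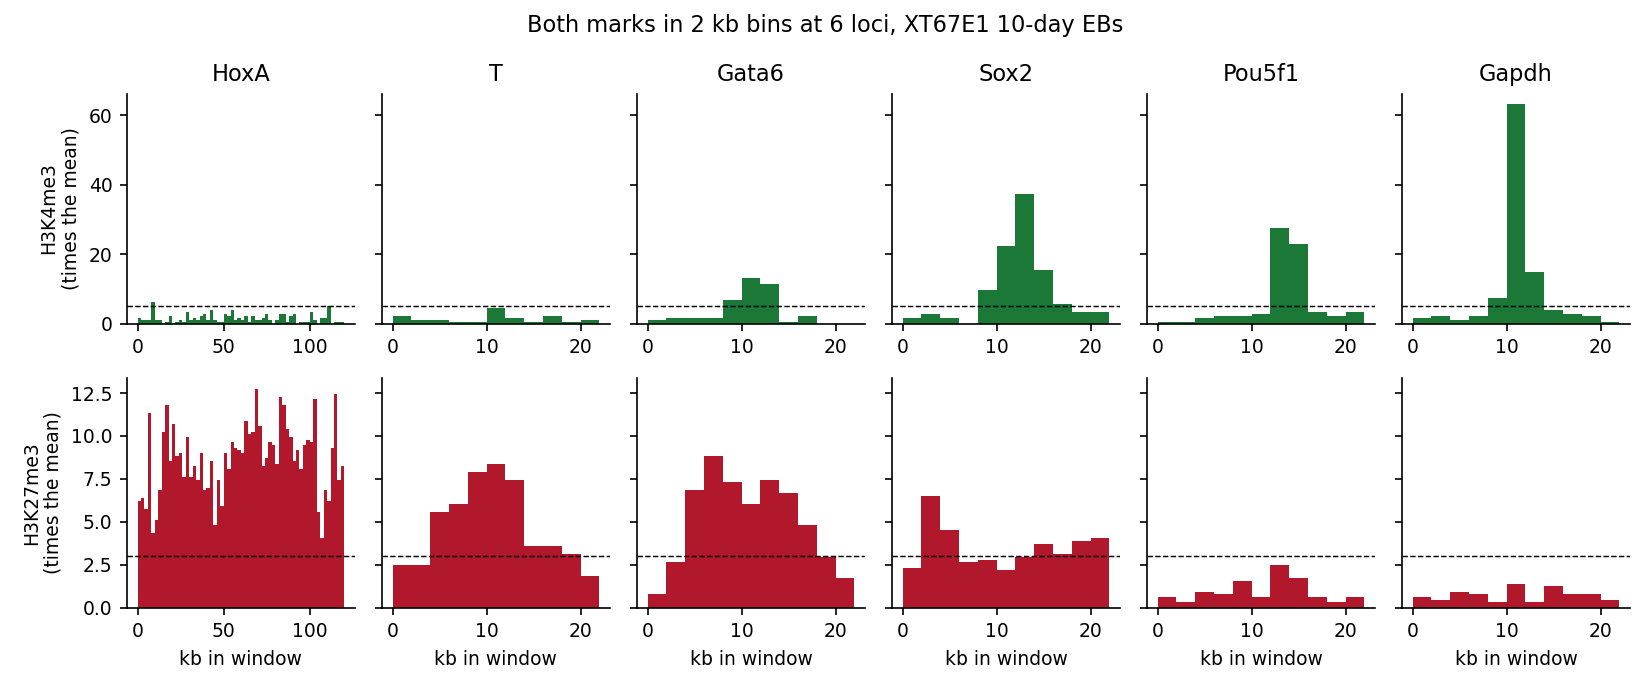
H3K4me3 (top) and H3K27me3 (bottom) in multiples of the autosomal mean, per 2 kb bin along the windows (kb) of HoxA, T, Gata6, Sox2, Pou5f1 and Gapdh in XT67E1 EBs, with thresholds as dashed lines. HoxA is filled by H3K27me3, and T has it in 8 of 11 bins. Gata6 has both marks in its centre, Sox2 has both in 2 bins, and Pou5f1 and Gapdh have H3K4me3 alone.

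The X chromosome lies outside the autosomal rule and is given with the same thresholds in multiples of the autosomal mean. On X, H3K4me3 marked 543 of 83315 bins (0.652%) and H3K27me3 marked 898 (1.08%), both below the autosomal shares, and the mean levels of X were 0.657 and 0.797 times the autosomal means. Of the 543 bins, 70 (12.9%, Wilson interval 10.3% to 15.97%) had both marks, close to the 12.3% of the autosomes. The bins with H3K4me3 on X otherwise differed from autosomal ones: their median H3K27me3 was 1.40 times the autosomal mean against 0.933, and 29.7% of them lay under the mean against 50.8%. In the same X bins the median H3K27me3 was 1.72 (LF2 EBs) and 0.559 (E14 EBs), each in multiples of that library's autosomal mean. Over the whole X, mean H3K27me3 was 0.765 (LF2) and 0.371 (E14) times the autosomal mean. E14 is, as background, a male line and the others are female, so the number of X copies and the H3K27me3 per copy cannot be told apart. Each line has 1 library, so these differences have no replicate check.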

How the data were processed

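The deposited files list read positions only: per the file contents each row is a 200 bp interval without strand or value, and no interval repeats within a library. Per the labels' protocols, formaldehyde-fixed chromatin was sonicated, precipitated and read on Illumina Genome Analyzers. The build, mm9, is from the submitters' processing notes. Aligner, read filters and interval extension are each not given in the sources used here, and no input library was used.

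Midpoints were counted in 2 kb bins of chromosomes 1 to 19 (Python 3.11.15, numpy 2.4.6, pandas 2.3.3, scipy 1.17.1), and each library was divided by its autosomal mean, 1.74 reads per bin for H3K4me3, 6.43 for H3K27me3, 3.49 for LF2 and 3.58 for E14. Shares have 95% Wilson intervals and folds exact Poisson intervals. The class calls and the joining into runs were tested on counts simulated per bin, and the binning of intervals was not tested. Reads in a bin also depend on mappability and copy number, which were not corrected.

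The text names the 5 highest bins and up to 5 widest runs of each class, and the 16 loci. The classes, loci and lists were chosen with earlier results of these data known. Other thresholds, bin sizes, bin offset, scalings, gaps and thinned H3K27me3 reads were tried as alternatives. Gene names were not read from an mm9 annotation, and promoter sequences are from RefSeq (GRCm38.p6). Marker genes not among the 16 loci were not placed.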

Additional observations from a re-analysis of the deposited data

How the results depend on the processing

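Counts of bins moved with the thresholds and the bin size, while in every setting run the share of H3K4me3 bins with H3K27me3 stayed above the share over all bins. Bins with both marks, 2008 as reported, numbered 4054 and 567 with H3K4me3 at 3 and 10 times the mean, 3377 and 901 with H3K27me3 at 2 and 5 times, and 4162 and 531 in bins of 1 and 5 kb. Bins with H3K4me3 alone (14288) numbered 28243 and 8789 with H3K4me3 at 3 and 10 times, and 28129 and 8210 in bins of 1 and 5 kb. Bins with H3K27me3 alone (25093) numbered 108818 and 6343 with H3K27me3 at 2 and 5 times, 75481 and 8289 in bins of 1 and 5 kb, and 43116 with H3K27me3 thinned to the number of H3K4me3 reads. The share of H3K4me3 bins with H3K27me3 (12.3%) was 6.06% with H3K4me3 at 10 times (2.19% over all bins), 20.7% and 5.53% with H3K27me3 at 2 and 5 times (9.08% and 0.586%), 12.9% and 6.07% in bins of 1 and 5 kb (3.22% and 1.78%), 10.6% with the mean taken over bins with a read in any library (1.89%), and 17.9% when a neighbouring H3K27me3 bin counted too (4.29%). Median H3K27me3 in H3K4me3 bins was 1.15 times the mean after thinning, against 0.933. Median run widths of both marks followed the bin size, at 1 kb and 5 kb. The share of H3K27me3 runs of 10 kb or more (6.85%) was 1.24% in 1 kb bins, 37.99% in 5 kb bins, 11.7% with 1 unmarked bin allowed inside a run and 2.52% after thinning. For H3K4me3 (0.162%) it was 0.0203%, 10.6% and 0.729% in the first 3 of these, below H3K27me3 in each. In H3K27me3 runs of 40 kb or more, 7.81% of bins had H3K4me3, and 2.60% without the run at the start of chromosome 11, which was chosen after seeing the data. Counts were held to 1.5 times, shares to their Wilson interval, the median level to 1 read and median widths to equality. By this, 53 values stayed and 28 moved, and no rule for a reversal was set. Some of the 53 could not move, such as the width of H3K4me3 runs when only the H3K27me3 threshold changed. Apart from the thresholds, bin sizes and thinning themselves, the cause was not tested. No paired analysis was possible because each mark has 1 library in this state, with no replicate number. H3K4me3 depth, 1.74 reads per bin, limits the classes: a bin near 9 reads cannot be placed firmly.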
